A study of Mus musculus with 16 samples.

Results

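The 10 genes described here belong to the endothelium, the cell layer that lines blood vessels, and were measured in mouse fetal liver at 2 stages of gestation and in 4 genotypes. They are Pecam1, Cdh5, Kdr, Tek, Tie1, Angpt1, Eng, Emcn, Stab2 and Lyve1, chosen by name as markers or ligands of vessels. The choice was made with earlier results of these data known, so it was not blind to them. Each was read by the only probe set that carries its symbol alone, so 10 of 19934 named genes on the array are described, and all 10 were bright enough to be tested. The samples were single-cell suspensions of fetal liver taken on embryonic day 14.5 (E14.5) or 12.5 (E12.5), with total RNA hybridised to 16 Affymetrix arrays. At each stage the embryos carried an ERG transgene and the GATA1s knock-in allele (ERG/GATA1s), the GATA1s allele alone (GATA1s), the transgene alone (ERG) or neither (wild type, WT). Each of the 8 groups held 1 array labelled female and 1 labelled male. GATA1s is the short isoform of GATA1, a transcription factor of red cells and megakaryocytes, and ERG is a transcription factor of both blood stem cells and endothelium. The labels name neither the transgene's promoter and species, nor the number of GATA1s copies in females, nor how many embryos made up a sample. P-values therefore measure only the spread between these samples.

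Liver vessels at these stages are largely sinusoids, wide capillaries with a leaky wall through which blood cells pass while the liver serves as the main blood-forming organ. PECAM1 and VE-cadherin (Cdh5) hold endothelial cells together, KDR is the main receptor for the growth factor VEGF, and the receptors TEK and TIE1 act with the angiopoietins to stabilise vessels. Endoglin (Eng) is a co-receptor for ligands of the TGF-beta and BMP family, endomucin (Emcn) is a surface sialomucin of veins and capillaries, and STAB2 and LYVE1 bind hyaluronan on sinusoidal and lymphatic endothelium. Several of the genes are also used by blood cells: Pecam1 by platelets and white cells, Tek, Tie1 and Angpt1 by stem cells and megakaryocytes, Eng by early blood progenitors and Lyve1 by some macrophages.

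The deposited log2 signal (the authors' RMA values) ran from 1.96 to 13.32, with array medians from 4.79 to 4.94, and 3.74, the 30th percentile of all values, was taken as the level of a dim probe set. Of the genes, 9 lay above 3.74 on all 16 arrays. Angpt1 was above it on 14 of 16, the E14.5 ERG arrays being at 3.25 and 3.74. In 3 arrays the sex markers opposed the label (E14.5 ERG/GATA1s labelled female, E12.5 GATA1s labelled male and E12.5 ERG/GATA1s labelled male), and values given without the 3 arrays leave these out. In 2 more arrays labelled male, E14.5 ERG and E12.5 WT, Xist (10.03 and 9.35) and the mean of 3 Y-linked genes (5.27 and 4.95) were both high, and these arrays were kept. The array labelled E12.5 ERG/GATA1s male had the narrowest spread over its probe sets, an SD of 2.03 against 2.13 to 2.25 in the others. None of 25 further pan-endothelial genes had a stage mean at or below the dim level. That level is a percentile of signal, not a test of detection, and some of the 25, such as Fli1 and Cd34, are shared with blood cells. In bulk RNA, fewer cells of a type and less RNA per cell cannot be told apart.

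Promoter sequence was held for 6 of the 10 genes in the RefSeq table (build GRCm38.p6), all but Pecam1, Cdh5, Angpt1 and Lyve1. The 250 bases before the start of 4 of them are shown 5' to 3', chosen after the values were seen as receptors that rose by stage (Stab2, Kdr and Tek) and the one that fell (Tie1). Capitals mark AGGAAG or its reverse complement CTTCCT, a core bound by ETS factors, the family of ERG.
Stab2 (chr10:87007943-87008192, minus strand): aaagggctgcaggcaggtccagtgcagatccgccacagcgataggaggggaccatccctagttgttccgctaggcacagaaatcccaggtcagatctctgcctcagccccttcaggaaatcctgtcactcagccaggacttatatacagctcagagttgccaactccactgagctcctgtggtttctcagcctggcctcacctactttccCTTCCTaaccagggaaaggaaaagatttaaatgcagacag
Kdr (chr5:75978456-75978705, minus strand): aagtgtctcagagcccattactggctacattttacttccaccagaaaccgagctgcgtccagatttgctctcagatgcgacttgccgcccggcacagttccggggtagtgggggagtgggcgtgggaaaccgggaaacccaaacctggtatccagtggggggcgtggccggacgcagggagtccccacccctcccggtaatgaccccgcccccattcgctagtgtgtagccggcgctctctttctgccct
Tek (chr4:94739039-94739288, plus strand): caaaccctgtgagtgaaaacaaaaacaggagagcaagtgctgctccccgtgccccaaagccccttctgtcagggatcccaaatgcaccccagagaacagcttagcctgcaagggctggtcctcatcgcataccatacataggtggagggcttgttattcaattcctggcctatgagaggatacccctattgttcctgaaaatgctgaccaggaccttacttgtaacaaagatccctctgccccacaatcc
Tie1 (chr4:118489850-118490099, minus strand): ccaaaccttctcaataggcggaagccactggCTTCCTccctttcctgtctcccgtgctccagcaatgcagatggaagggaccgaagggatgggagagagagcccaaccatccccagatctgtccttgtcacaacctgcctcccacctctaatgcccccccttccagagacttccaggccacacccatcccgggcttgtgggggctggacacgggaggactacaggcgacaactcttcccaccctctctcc
Stab2 and Tie1 each held 1 match and Kdr and Tek held 0. Over the 6 promoters 4 held a match, Eng and Emcn with 2 each, and 29.5% of 32851 windows of 250 bases in the table did. GATAA, or TTATC on the other strand, a core bound by GATA factors, was found in 0 of the 6 and in 22.6% of all windows. A match is a run of letters, not a measured binding site.

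The first comparison set E14.5 against E12.5 over the 4 genotypes, 8 arrays a side. The hyaluronan receptors, the junction protein VE-cadherin and the receptors of VEGF and angiopoietin rose: Stab2 3.30-fold, Lyve1 2.85-fold, Cdh5 2.28-fold, Kdr 1.97-fold and Tek 1.91-fold. The ligand Angpt1 fell by 0.49 on the log2 scale, and the orphan receptor Tie1 fell by 0.20. Eng rose by 0.23, while Emcn and Pecam1 did not pass the test. In all, 8 of the 10 genes passed (limma with Benjamini-Hochberg adjustment at 0.05), 6 higher and 2 lower, where 56.2% of all 16258 test units passed. The median change of the 10 was 0.59, against -0.03 over all units.

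**Figure D1:**
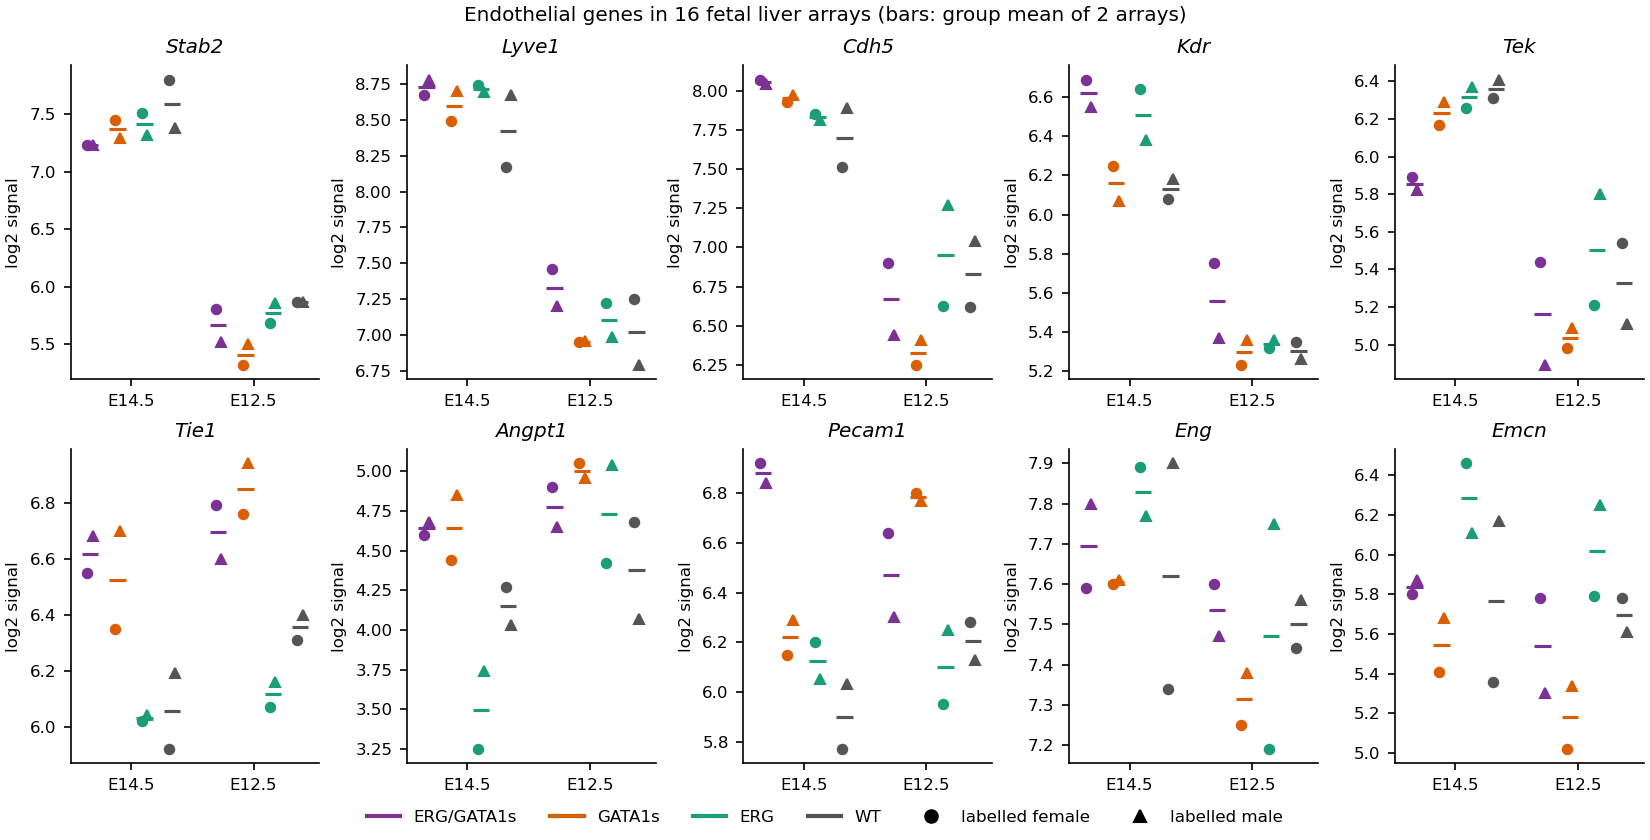
Log2 signal of the 10 genes on each of 16 arrays (points; circles labelled female, triangles labelled male), grouped by stage with ERG/GATA1s, GATA1s, ERG and WT in order from the left, and bars at the mean of 2 arrays. Stab2, Lyve1, Cdh5, Kdr and Tek are higher on all 8 E14.5 arrays than on any E12.5 array, and Tie1 is higher in both GATA1s-carrying groups at each stage. The share of all 16258 test units with no overlap between stages is not given, and 56.2% of them passed the stage test.

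Stab2, a scavenger receptor that clears hyaluronan from the blood, had the largest change of the 10. Its signal ran from 7.23 to 7.80 with a median of 7.35 at E14.5, against 5.32 to 5.87 with a median of 5.75 at E12.5. The stages were separated by more than 1 log2 unit, with each spanning about as much as the other, and the change was 1.72 ± 0.08 (SE, limma adjusted p = 4.78e-09, higher in 8 of 8 pairs matched for genotype and labelled sex). Lyve1, the other hyaluronan receptor, ran from 8.17 to 8.78 with a median of 8.68 at E14.5, against 6.79 to 7.46 with a median of 7.09 at E12.5. The lowest E14.5 value, in the WT array labelled female, was still above every E12.5 array, and the change was 1.51 ± 0.09 (limma adjusted p = 5.16e-08, 8 of 8 pairs).

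Cdh5 ran from 7.51 to 8.07 with a median of 7.91 at E14.5, against 6.25 to 7.27 with a median of 6.62 at E12.5. The E14.5 arrays lay closer together (SD 0.18, n = 8) than the E12.5 arrays (SD 0.35, n = 8), the groups did not overlap, and the change was 1.19 ± 0.10 (limma adjusted p = 7.66e-07, 8 of 8 pairs). Kdr ran from 6.07 to 6.69 with a median of 6.32 at E14.5, against 5.23 to 5.75 with a median of 5.36 at E12.5. A single E12.5 array, ERG/GATA1s labelled female at 5.75, stood above the other 7, which lay at 5.37 or lower, and the stages still did not overlap (0.98 ± 0.07, limma adjusted p = 1.87e-07). Tek, the receptor for the angiopoietins, ran from 5.82 to 6.41 with a median of 6.28 at E14.5, against 4.89 to 5.80 with a median of 5.16 at E12.5. Its stages nearly met, at 5.82 in E14.5 ERG/GATA1s and 5.80 in E12.5 ERG, both labelled male, and the change was 0.93 ± 0.11 (limma adjusted p = 8.53e-06, 8 of 8 pairs). These 5 calls held under all 26 other settings and without the 4 ERG arrays. The share of all units whose groups do not overlap is not given, here or for later comparisons, so a lack of overlap is description only.

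Of the genes whose products act with TEK, Angpt1 and Tie1 were lower at E14.5, whereas Ptprb, given below, was higher. Angpt1, the activating ligand of TEK, ran from 3.25 to 4.85 with a median of 4.36 at E14.5, against 4.07 to 5.05 with a median of 4.79 at E12.5. The stages overlapped, but 7 of 8 pairs were lower at E14.5 (-0.49 ± 0.12, limma adjusted p = 0.00412). By genotype the mean difference was -0.14 in ERG/GATA1s, -0.36 in GATA1s, -1.24 in ERG and -0.23 in WT, and the E14.5 ERG arrays, at 3.25 and 3.74, were at or below the dim level. The call held under the 26 other settings but was lost without the 4 ERG arrays, a fit added after the values were seen (-0.24 ± 0.12, adjusted p = 0.113). Tie1, a receptor that pairs with TEK, ran from 5.92 to 6.70 with a median of 6.27 at E14.5, against 6.07 to 6.94 with a median of 6.50 at E12.5. The ranges overlapped over most of their length, the change was -0.20 ± 0.07 (limma adjusted p = 0.0272, lower in 7 of 8 pairs), and the call did not survive the removal of single arrays. It was lost without E14.5 WT, GATA1s or ERG/GATA1s labelled female, E14.5 ERG or ERG/GATA1s labelled male, E12.5 WT or ERG labelled female, or E12.5 GATA1s labelled male, with adjusted p reaching 0.0746, and without the 4 ERG arrays (0.0539).

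The remaining 3 genes differed little by stage when averaged over the genotypes. Eng ran from 7.34 to 7.90 at E14.5, against 7.19 to 7.75 at E12.5, and its rise of 0.23 ± 0.09 (limma adjusted p = 0.0375, 6 of 8 pairs) was lost in 15 of 26 settings, 11 of them the removal of a single array (adjusted p up to 0.107), with an adjusted p of 0.241 without the 3 arrays and 0.132 without the 4 ERG arrays. Emcn ran from 5.36 to 6.46 at E14.5, against 5.02 to 6.25 at E12.5 (0.25 ± 0.12, limma adjusted p = 0.0975). Pecam1 ran from 5.77 to 6.92 at E14.5, against 5.95 to 6.80 at E12.5 (-0.11 ± 0.08, limma adjusted p = 0.249), and passed as lower only after a further quantile normalization (adjusted p = 0.00577). Its average joins opposite signs: by genotype the mean difference was 0.41 in ERG/GATA1s, -0.57 in GATA1s, 0.03 in ERG and -0.31 in WT. The F test of stage by genotype, given below, did not call Pecam1.

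**Figure D2:**
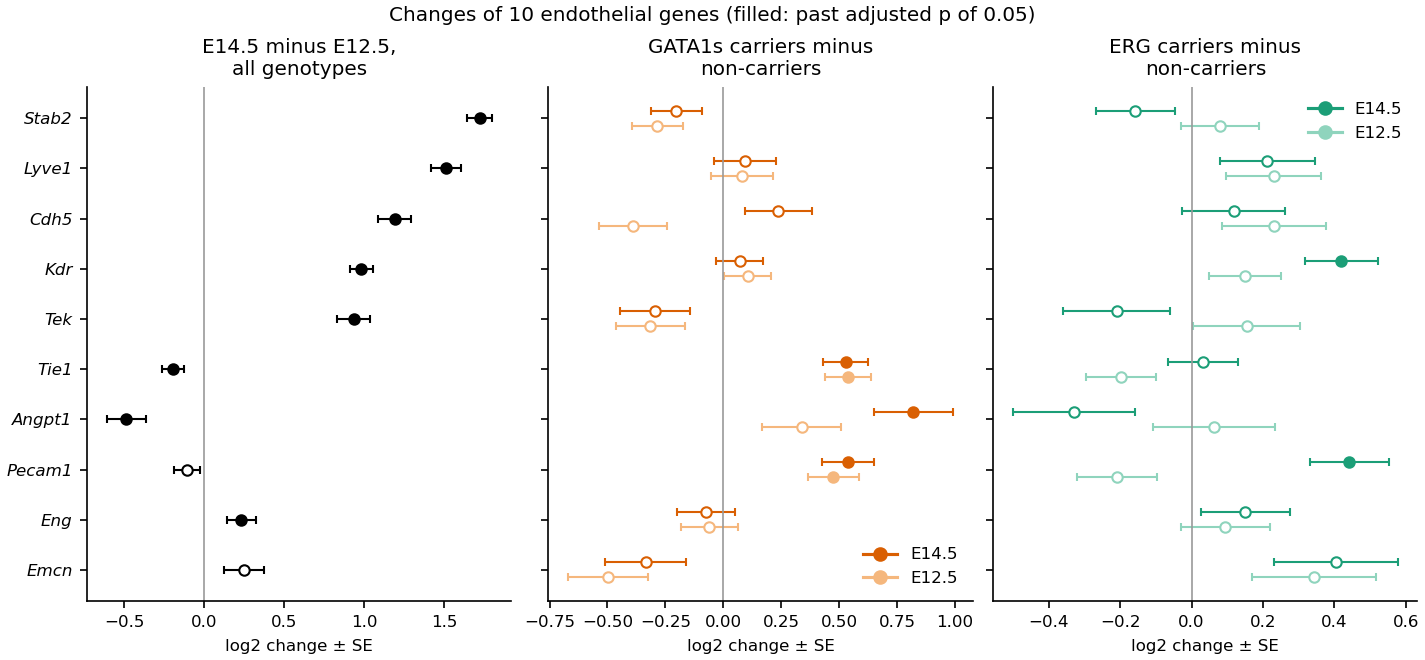
Log2 change ± SE of the 10 genes for E14.5 minus E12.5 (left), GATA1s carriers minus non-carriers at each stage (middle) and ERG carriers minus non-carriers at each stage (right), with filled points for an adjusted p under 0.05. Stab2 at 1.72 is farthest right by stage, and Tie1, Pecam1 and Angpt1 are the filled points for GATA1s carriers.

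Other endothelial genes were set beside the 10. In the list counts here and below, rose and fell mean that a gene passed the test as higher or lower. Over all 16258 test units, 4718 passed as higher and 4417 as lower at E14.5, 56.2% together. Counts near these shares are description only. Of 15 sinusoidal genes, 9 rose and 1 fell at E14.5, with a median change of 0.63. Gpr182, an atypical chemokine receptor, changed by 1.51 ± 0.12 (limma adjusted p = 3.29e-07), Mrc1, the mannose receptor, by 1.20 ± 0.08 (adjusted p = 1.3e-07), and Oit3, a marker of liver sinusoids, by 0.99 ± 0.10 (adjusted p = 3.17e-06). Of 25 further pan-endothelial genes, 10 rose and 3 fell (median 0.15): Adgrf5, an adhesion receptor, rose by 1.23 ± 0.09, Ptprb, the phosphatase that acts on TEK, by 0.96 ± 0.06 and Mmrn2, a matrix protein of endothelium, by 0.75 ± 0.08, whereas Cd34, a sialomucin shared with blood stem cells, fell by 1.05 on the log2 scale. Of 16 arterial, venous and lymphatic genes, 8 rose and 0 fell (median 0.16), among them Prox1, the regulator of lymphatic and hepatocyte fate, at 1.27 ± 0.11 and Nr2f2, a venous factor, at 0.66 ± 0.11.

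Ligands and receptors around the 10 moved unevenly. In the VEGF and angiopoietin list 7 of 14 genes rose and 3 fell (median 0.13). The co-receptor Nrp1 rose by 1.37 ± 0.12, the ligand Vegfd by 0.64 ± 0.09 and the lymphatic receptor Flt4 by 0.56 ± 0.09, while the kinase Ptk2b fell by 0.57 on the log2 scale. In the TGF-beta and BMP list 8 of 20 rose and 4 fell (median 0.15). Gdf2, which encodes BMP9, a ligand that endoglin binds, rose by 1.37 ± 0.09, and the target Id2 by 0.81 ± 0.10, and Bmp4 fell by 0.49 on the log2 scale.

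Genes of other cell types moved with stage as well. All 15 measured macrophage genes rose, with a list mean of 6.47 to 7.07 at E14.5 and 5.52 to 5.81 at E12.5, and Cd5l was at or below the dim level at E12.5. All 18 hepatoblast and hepatocyte genes rose (9.70 to 10.71 at E14.5, 7.88 to 9.18 at E12.5), and 13 of 21 stellate and mesenchymal genes rose and 1 fell (5.98 to 6.58, against 5.46 to 5.89). Of the blood lists, megakaryocyte and platelet genes had 6 higher and 10 lower of 19, stem and progenitor genes 4 higher and 10 lower of 16, and erythroid genes 3 higher and 3 lower of 15. Mrc1 is in the macrophage list too. The part of these cell types in the changes of the 10 genes was not tested.

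**Figure D3:**
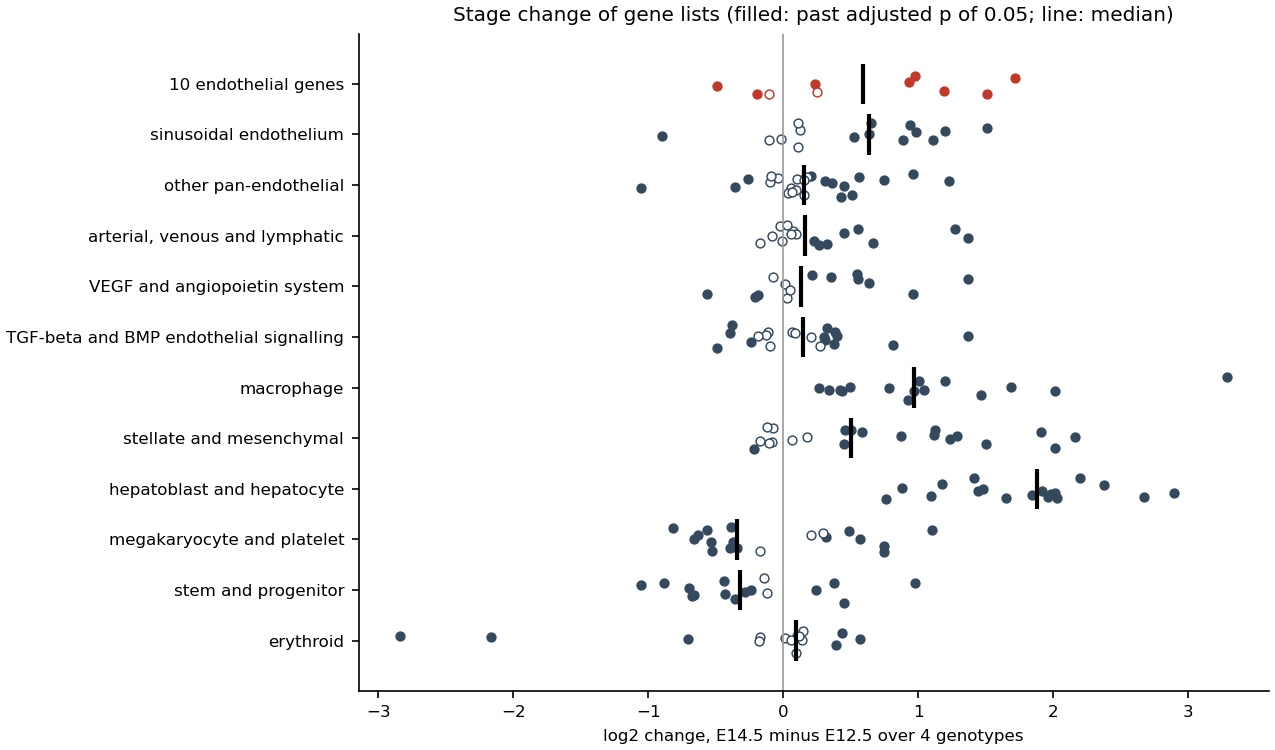
Log2 change, E14.5 minus E12.5, of each gene in 12 lists (points, filled for an adjusted p under 0.05; vertical lines are list medians). The 10 endothelial genes and the sinusoidal list have medians of 0.59 and 0.63, the further pan-endothelial list 0.15 and the hepatocyte list 1.88.

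The second comparison asked which of the 10 genes differed with the GATA1s allele, first against WT. Tie1 and Pecam1 passed as higher in GATA1s over both stages. No member passed as lower, although only 5 of the 10 had a change above 0. In all, 2 of the 10 passed, where 3.81% of all units passed (median change of the 10, -0.05; of all units, 0.01). Tie1 changed by 0.48 ± 0.10 (limma adjusted p = 0.0169, higher in 4 of 4 pairs) and Pecam1 by 0.45 ± 0.11 (adjusted p = 0.0405, 4 of 4 pairs). Without the 3 arrays both calls were lost (adjusted p = 0.0581 for Tie1 and 0.0802 for Pecam1). The removal of E14.5 GATA1s labelled male, either E12.5 GATA1s array, E14.5 WT labelled female or E12.5 WT labelled male also ended the Tie1 call (up to 0.0807), and that of any of 11 arrays the Pecam1 call (up to 0.176). Within a single stage no member passed, at E14.5 (1.07% of units) or at E12.5 (1.33%), although 1 and 5 members had an unadjusted p under 0.05.

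To use all arrays, the GATA1s and ERG/GATA1s groups were then set together against ERG and WT, 8 carriers against 8 non-carriers, a comparison added after the values were seen. Of the 10, 5 passed, 3 higher and 2 lower, where 18.1% of all units passed. Taken alone, E14.5 called 3 of the 10, all higher (13.4% of units), and E12.5 called 2, both higher (6.35% of units). The 3 rises over both stages held under all 26 other settings. Without the 4 ERG arrays, which leaves WT alone as the non-carriers, they held too (adjusted p of 0.0109 for Tie1, 0.00635 for Pecam1 and 0.0255 for Angpt1), but both E12.5 calls were lost (0.173 for Tie1 and 0.181 for Pecam1). These comparisons share arrays with those against WT, so they are not separate evidence.

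Tie1 signal in carriers at E14.5 was 6.55 and 6.68 in ERG/GATA1s and 6.35 and 6.70 in GATA1s, against 6.02 and 6.04 in ERG and 5.92 and 6.19 in WT. At E12.5 it was 6.79 and 6.60 in ERG/GATA1s and 6.76 and 6.94 in GATA1s, against 6.07 and 6.16 in ERG and 6.31 and 6.40 in WT. At each stage every carrier array lay above every non-carrier array. The change was 0.53 ± 0.07 over both stages (limma adjusted p = 0.000229, 8 of 8 pairs), 0.53 ± 0.10 at E14.5 (adjusted p = 0.00369) and 0.54 ± 0.10 at E12.5 (adjusted p = 0.00665, but 0.0862 without the 3 arrays).

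Pecam1 in carriers at E14.5 was 6.92 and 6.84 in ERG/GATA1s and 6.15 and 6.29 in GATA1s, against 6.20 and 6.05 in ERG and 5.77 and 6.03 in WT. At E12.5 it was 6.64 and 6.30 in ERG/GATA1s and 6.80 and 6.77 in GATA1s, against 5.95 and 6.25 in ERG and 6.28 and 6.13 in WT. The highest group was E14.5 ERG/GATA1s, followed by E12.5 GATA1s; the groups ranked 4 to 7 differed by less than the spread of their arrays. Over both stages the change was 0.51 ± 0.08 (limma adjusted p = 0.000803, 8 of 8 pairs), with 0.54 ± 0.11 at E14.5 (adjusted p = 0.00728) and 0.48 ± 0.11 at E12.5 (adjusted p = 0.0237, but 0.103 without the 3 arrays). The E12.5 call was also lost without either GATA1s array, ERG labelled female or WT labelled male (up to 0.127).

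Angpt1 in carriers at E14.5 was 4.60 and 4.68 in ERG/GATA1s and 4.44 and 4.85 in GATA1s, against 3.25 and 3.74 in ERG and 4.27 and 4.03 in WT. At E12.5 it was 4.90 and 4.65 in ERG/GATA1s and 5.05 and 4.96 in GATA1s, against 4.42 and 5.04 in ERG and 4.68 and 4.07 in WT. Carriers and non-carriers were apart at E14.5 and overlapped at E12.5, where the change of 0.34 ± 0.17 did not pass (limma adjusted p = 0.251). It was 0.58 ± 0.12 over both stages (adjusted p = 0.00538, 7 of 8 pairs) and 0.82 ± 0.17 at E14.5 (adjusted p = 0.0075, and 0.0657 without the 3 arrays). The E14.5 difference includes ERG values at or below the dim level: against WT alone it was 0.49 ± 0.24 in ERG/GATA1s (adjusted p = 0.278) and 0.50 ± 0.24 in GATA1s (adjusted p = 0.4), and 0.49 ± 0.18 for both together without the 4 ERG arrays (adjusted p = 0.141).

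The 2 members called lower in carriers were endothelial surface proteins with smaller changes. Emcn changed by -0.42 ± 0.12 (limma adjusted p = 0.0312, lower in 7 of 8 pairs) and Stab2 by -0.24 ± 0.08 (adjusted p = 0.0442, 7 of 8 pairs). The Emcn call was lost in 11 of 26 settings, 9 of them the removal of a single array (up to 0.0915), and at 0.167 without the 3 arrays. The Stab2 call was lost in 18, 12 of them the removal of a single array (up to 0.132), and at 0.12 without the 3 arrays. Without the 4 ERG arrays both calls were lost, Emcn at -0.20 (adjusted p = 0.463) and Stab2 at -0.31 (0.0835). Tek was lower in 7 of 8 pairs with no call (-0.31 ± 0.11, adjusted p = 0.0622). Cdh5, Kdr, Eng and Lyve1 had differences between -0.08 and 0.09 with adjusted p of 0.435 or more.

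Megakaryocyte and platelet genes moved with Tie1, Pecam1 and Angpt1. In carriers 16 of 19 rose and 0 fell, with a list mean of 8.40 to 9.01 at E14.5 and 8.38 to 9.04 at E12.5, against 7.49 to 7.80 at E14.5 and 7.63 to 8.20 at E12.5 in non-carriers, and none was at the dim level at either stage. Mmrn1, a platelet granule protein, changed by 3.04 (limma adjusted p = 3.64e-06) and the integrin Itgb3 by 1.60 (adjusted p = 3.21e-06). Of the 25 further pan-endothelial genes 2 rose and 2 fell (median 0), among them Fli1, an ETS factor of endothelium and blood, at 0.53 ± 0.09, and Lmo2, a partner of GATA1, which fell by 0.62 on the log2 scale. Vwf, made by endothelium and megakaryocytes, changed by 0.65 ± 0.08. In the sinusoidal list 1 of 15 rose and 2 fell, and Oit3 was among the 2 (-0.37 ± 0.10, adjusted p = 0.0206, lost without any of 5 single arrays, up to 0.0603, and at 0.0992 without the 3 arrays). The sinusoidal gene that rose was Fcgr2b (0.39, limma adjusted p = 0.0101), and the other that fell was Mrc1 (-0.32, adjusted p = 0.0174). Both calls were lost without the 3 arrays, and the list median was -0.065. Erythroid genes had 0 higher and 10 lower of 15 in carriers, and stem and progenitor genes 6 higher and 1 lower of 16. Of 18 hepatocyte genes 2 rose and 0 fell in carriers at E14.5, with a list mean of 10.04 to 10.71 against 9.70 to 10.38 in non-carriers, and 0 rose and 17 fell at E12.5, with 7.88 to 8.12 against 8.58 to 9.18. The part of these cells in the 5 calls was not tested.

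**Figure D4:**
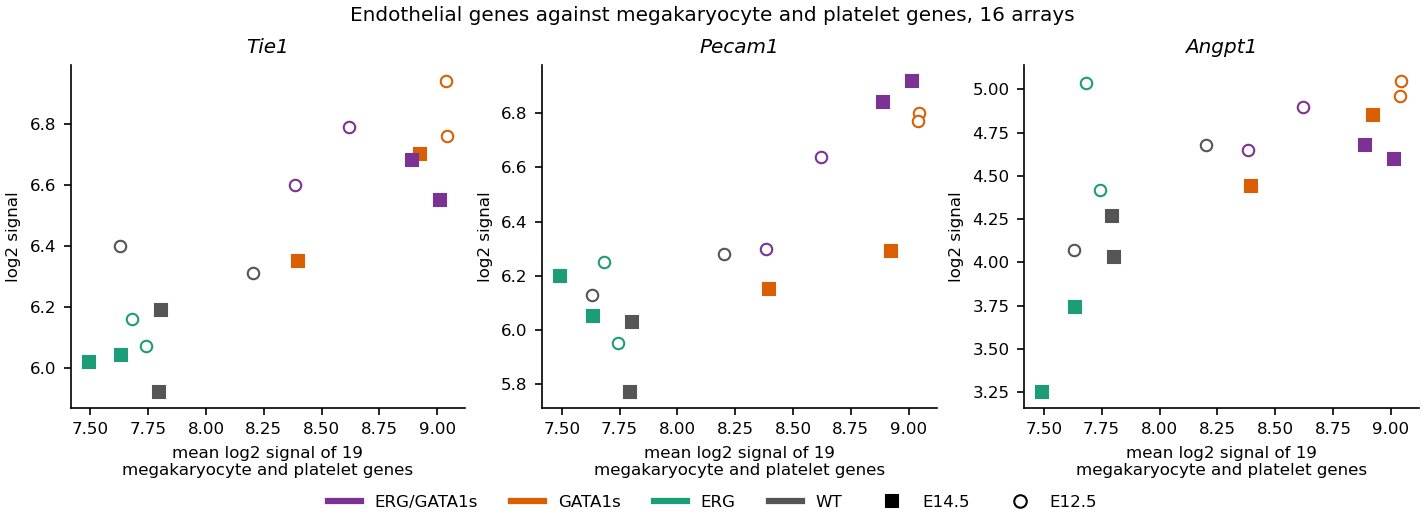
Log2 signal of Tie1, Pecam1 and Angpt1 on each array against the mean log2 signal of 19 megakaryocyte and platelet genes on the same array (squares E14.5, open circles E12.5, colours by genotype). The carriers of GATA1s lie between 8.38 and 9.04 on the horizontal axis and the non-carriers between 7.49 and 8.20, and every Tie1 value of 6.55 or higher is from a carrier.

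The third comparison took the transgene alone. Signal of the mouse Erg probe set differed by 0.22 ± 0.10 between ERG and WT arrays (limma adjusted p = 0.655), and whether it reads the transgene is unknown. No member passed in ERG against WT over both stages (0.283% of units; 1 member had an unadjusted p under 0.05), at E14.5 (1.69%; 2 members) or at E12.5, where no unit passed (0%; 666 had an unadjusted p under 0.05). Emcn was 0.42 ± 0.17 higher in ERG over both stages (limma adjusted p = 0.534).

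ERG/GATA1s against WT over both stages called 3 members, all higher, where 10.6% of units passed. Pecam1 changed by 0.62 ± 0.11 (limma adjusted p = 0.00378, held under all 27 settings), Tie1 by 0.45 ± 0.10 (adjusted p = 0.0107, and 0.0514 without the 3 arrays) and Kdr by 0.37 ± 0.10 (adjusted p = 0.0324, lost in 10 of 27 settings, 5 of them the removal of a single array, up to 0.121, and at 0.0884 without the 3 arrays). At E14.5 these 3 members passed as well, where 9.16% of units passed. There Pecam1 was at 6.92 and 6.84 in ERG/GATA1s, against 5.77 and 6.03 in WT, a 1.97-fold difference (0.98 ± 0.16, adjusted p = 0.00163). It lost the call when only the 4 arrays compared were fitted (adjusted p = 0.128), and its adjusted p was 0.0493 without the 3 arrays. Tie1 changed by 0.56 ± 0.14 (adjusted p = 0.0217), a call lost without either ERG/GATA1s array or WT labelled female (up to 0.166) and at 0.118 without the 3 arrays. Kdr changed by 0.49 ± 0.14 (adjusted p = 0.0485), a call lost in 19 of 27 settings and at 0.188 without the 3 arrays. In the same E14.5 comparison, megakaryocyte and platelet genes had 14 higher and 0 lower of 19, and erythroid genes 1 higher and 12 lower of 15. Stem and progenitor genes had 2 higher and 0 lower of 16. The part of these cells in the 3 calls was not tested. At E12.5 no member passed (0.00615% of units, and 1 member had an unadjusted p under 0.05).

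Kdr and Pecam1 passed for carriers of the transgene, ERG/GATA1s and ERG together, at E14.5. Kdr was 6.69 and 6.55 in ERG/GATA1s and 6.64 and 6.38 in ERG, against 6.25 and 6.07 in GATA1s and 6.08 and 6.18 in WT. Every carrier of the transgene lay above every non-carrier, and the change was 0.42 ± 0.10 (limma adjusted p = 0.0318). Pecam1 changed by a like amount (0.44 ± 0.11, adjusted p = 0.0401), so 2 of the 10 were called, where 4.2% of units were. Both calls were lost without the 3 arrays (adjusted p = 0.0996 for Kdr and 0.169 for Pecam1). The Kdr call was also lost without any single E14.5 array other than WT labelled male (up to 0.211), and the Pecam1 call in 16 of 27 settings. Over both stages no member passed (1.25% of units; 3 members had an unadjusted p under 0.05), Kdr being 0.29 ± 0.07 higher (adjusted p = 0.0763). At E12.5 no member passed either (0% of units; 0 members had an unadjusted p under 0.05). The gene Vegfa, whose product binds KDR, changed by 0.64 ± 0.13 at E14.5 (adjusted p = 0.0112, lost without any of 3 single arrays, up to 0.0744, and at 0.13 without the 3 arrays). Tgfb1 (0.96, limma adjusted p = 0.000436) and the sinusoidal gene Plxnc1 (0.95, adjusted p = 0.00821) changed by more than Vegfa there. In lists of other cells, macrophage genes had 0 higher and 4 lower of 15, and erythroid genes 1 higher and 6 lower of 15. Megakaryocyte and platelet genes had 3 higher and 1 lower of 19, and stem and progenitor genes 3 higher and 1 lower of 16. The part of these genes and cells in the Kdr and Pecam1 calls was not tested.

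The stage by genotype terms were tested together for each gene with an F test. It called no member (2.42% of units passed; 2 members, Pecam1 and Angpt1, had an unadjusted p under 0.05), and Pecam1 came nearest (limma adjusted p = 0.0952): its ERG/GATA1s effect was 0.72 ± 0.22 larger at E14.5 than at E12.5 (adjusted p = 0.196). Cdh5 had a GATA1s term of 0.75 ± 0.29 (adjusted p = 0.401), and Angpt1 an ERG term of -1.01 ± 0.34 (adjusted p = 0.436), which rests on E14.5 ERG values at or below the dim level.

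The genes most like each member over the 16 arrays were found by Pearson's r, as a description of arrays that differ by both stage and genotype. For Tie1 they were Rbpms2 (0.95), Cap1 (0.95) and Ninj1 (0.95), with r of 0.96, 0.96 and 0.98 within E12.5 and 0.98, 0.95 and 0.95 within E14.5 (8 arrays each). For Pecam1 they were Ubash3b (0.93), Tagln2 (0.93) and Vps37b (0.93), and for Angpt1 Dock8 (0.94), Med12l (0.93) and Ywhaz (0.92), all with r of 0.81 or more within each stage. Stab2 correlated with Prdx1 at 0.97 over 16 arrays, at -0.63 within E14.5 and at 0.79 within E12.5. Lyve1 correlated with Il1a at 0.98, at 0.73 and 0.76 within those stages, and Cdh5 with Fermt2 at 0.98, at 0.90 and 0.88. Lyve1 was itself among the 3 genes most like Kdr, at 0.96 over 16 arrays, but at 0.55 within E14.5 and 0.77 within E12.5.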

How the data were processed

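Log2 signal per probe set in 16 fetal liver samples was deposited by the authors as RMA values, per the submitters' processing notes, without a version. RMA corrects the background, normalizes arrays to one another and summarises probes. Scanner files were not used here, and probe sets have no stated genome build. Of 28270 probe sets, 21780 carried 1 gene symbol, 1617 several and 4873 none. The probe set with the highest mean stood for each symbol, and those above the 30th percentile (3.74) on at least 2 arrays were kept, leaving 16258 test units. A single limma 3.58.1 model (R 4.3.3) took in the 16 arrays, with a mean for each group and a term for labelled sex, which left 7 residual degrees of freedom. P-values are two-sided, from eBayes, with Benjamini-Hochberg adjustment over all units at 0.05. The median residual SD was 0.162 on the log2 scale, and precision is limited by how few arrays each group has.

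The members and the 11 other lists were chosen with earlier results of these data known. Named genes are the 10 members, up to 4 called genes per list and comparison by size of change, and the 3 genes most like each member. Comparisons of carriers with non-carriers and a fit without the 4 ERG arrays were added after seeing the data. Other settings were a fit without the 3 arrays of doubtful labelled sex, a Y-linked covariate in place of labelled sex, the dim filter, a quantile normalization, centring, no sex term, arrayWeights, all probe sets, eBayes with trend and robust, the arrays compared alone and leaving out each array. Promoter sequence is from RefSeq (GRCm38.p6).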

Additional observations from a re-analysis of the deposited data

How the results depend on the processing

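Over 455 recomputed counts of called members, 389 stayed within 1.5 times the original, 55 fell below it and 11 rose above it. A count of 0 that stayed at 0 is among the 389, and a count has no direction that could reverse. Without the 4 ERG arrays, a setting added after the values were seen and not among the 455, the counts were 5 for E14.5 against E12.5, 3 for GATA1s carriers over both stages, 2 for GATA1s carriers at E14.5 and 0 at E12.5. Leaving out each array in turn gave 6 to 9 members for E14.5 against E12.5 (8 with all arrays), 0 to 3 for GATA1s against WT over both stages (2), 2 to 4 for ERG/GATA1s against WT over both stages (3), 0 to 2 for GATA1s against WT at E12.5 (0) and 1 to 3 for ERG/GATA1s against WT at E14.5 (3). For carriers it gave 3 to 6 for GATA1s over both stages (5), 1 to 6 for GATA1s at E12.5 (2), 3 throughout for GATA1s at E14.5 (3), 0 to 2 for ERG at E14.5 (2) and 0 to 1 for ERG over both stages (0). The F test of stage by genotype gave 0 to 1 (0). Without the 3 arrays that disagree with their labelled sex, the counts were 0 for GATA1s against WT and 1 for ERG/GATA1s against WT over both stages, 1 for ERG/GATA1s against WT at E14.5, 3 for GATA1s carriers over both stages, 0 for GATA1s carriers at E12.5 and 0 for ERG carriers at E14.5. With only the arrays compared they were 1 for GATA1s against WT and 1 for ERG/GATA1s against WT over both stages, 0 for ERG/GATA1s against WT at E14.5 and 1 for ERG carriers at E14.5. GATA1s against WT over both stages fell to 1 with no filter, with centring and with trend and robust eBayes. A further quantile normalization gave 2 for GATA1s against WT at E12.5, 1 for GATA1s against WT at E14.5 and 1 for the F test. With arrayWeights GATA1s against WT at E12.5 gave 2 and GATA1s carriers at E12.5 gave 1. Centring gave 1 for GATA1s carriers at E12.5 and 1 for ERG carriers at E14.5, and that comparison also gave 1 with trend and robust eBayes and with the Y-linked covariate, which gave 1 for ERG/GATA1s against WT at E14.5. Fewer arrays leave fewer degrees of freedom, and otherwise the cause was not tested. The members that GATA1s carriers at E12.5 gained on leaving out a single array (Cdh5, Tek, Emcn and Stab2) were all lower in carriers. Labelled sex, a term of the model, matches 1 array to 1 across groups by label only, and the counts without that term stayed within 1.5 times the original. By the sex markers, both E14.5 ERG/GATA1s arrays read as male (Xist 4.22 and 4.19). Both E12.5 GATA1s arrays and both E12.5 ERG/GATA1s arrays read as female (Xist 9.51 to 10.08). Sex by markers is therefore not balanced over the genotypes. Angpt1 lies near the dim level, so its changes there are limited by signal over background.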
